A study of Mus musculus with 7 samples.

Results

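Triglyceride assembly and the use of glycerol were followed through 10 genes: Gpd1, Gyk, Gpam, Agpat9, Agpat2, Lpin1, Lpin2, Dgat1, Dgat2 and Mogat1. They were found as the probes, controls set aside, whose gene name in the array files was 1 of these names, where Gyk is the older name of Gk and Agpat9 that of Gpat3. All 10 were present among 36492 gene names, with 12 of 55681 probes, and 9 of them were among the 20002 genes whose probe was bright enough to be compared. The livers came from female C57BL/6 mice of 8 to 12 weeks that had gone without food for 24 h, so that every group was fasted. WT were 3 wild-type mice, and SHIVA were 4 mice that carry a dominant mutation of Sox17, obtained by chemical (ENU) mutagenesis and kept heterozygous by repeated crossing to C57BL/6. The mutation is in the germ line, so it is carried by hepatocytes and by every other cell of the animal. The comparison asks how this mutation bears on the lipid programme of the liver during fasting.

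Triglyceride is built on a glycerol backbone. The backbone enters as glycerol-3-phosphate, which is made from a sugar intermediate by the product of Gpd1 or from free glycerol by glycerol kinase, the product of Gyk. Acyltransferases then add fatty acids in turn, phosphatidate phosphatases of the lipin family remove the phosphate to leave diacylglycerol, and the DGAT enzymes add the last fatty acid. A side route starts from monoacylglycerol and uses the MOGAT enzymes. In the fasted liver this pathway re-esterifies fatty acids that arrive from adipose tissue, for storage in droplets and for secretion in lipoproteins, while glycerol set free by lipolysis can serve as a source of glucose.

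Each liver was hybridized to its own single-colour array, without pooling. Signals are given as log2 of the quantile normalized spot intensity, so that 1 unit is a doubling, and a signal can be compared between mice for the same probe but not between probes. The share of probes well above background was 44.5% to 48.7%, no array held a saturated spot (0 in all), and the lowest correlation between 2 arrays was 0.972. All arrays lay on 1 slide with WT in row 1 and SHIVA in row 2, so that place and genotype cannot be told apart. The array of SHIVA 2 stood apart most often, lying far from the other 3 SHIVA livers in 838 of 19969 genes (4.2%), against 0.646% to 1.81% for the others, and results that rest on it are given without it too. All 8 hepatocyte markers were well above background on every array, with a mean log2 signal of 15.29 to 15.64 in WT and 15.34 to 15.64 in SHIVA livers. Of the 6 adipocyte markers, 4 (Plin1, Lep, Retn and Cfd) were above background on no array, and the list mean was 2.30 to 2.94 in WT and 2.20 to 2.83 in SHIVA livers. In the bile duct, pancreas, endothelial, macrophage and stellate cell lists, as in these, 0 markers were called. The bile duct list had a median change of -0.64, with 3 of 4 tested markers below 0 and a mean log2 signal of 4.73 to 5.75 in WT and 4.22 to 5.47 in SHIVA livers, and its part in the results was not tested. The probe of Sox17 read 4.52, 3.41 and 3.92 in WT and 4.62, 4.46, 4.76 and 4.70 in SHIVA livers, with a change of 0.69 on the log2 scale (standard error, SE, of 0.25; adjusted p = 0.279 from limma), with overlapping values. This probe was dim, well above background on 2 of the 3 WT and on all 4 SHIVA arrays. Since the mutation is a change of protein sequence, this level does not check the genotype. In a piece of liver, fewer cells of a type and less RNA per cell cannot be told apart.

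The 250 bases upstream of the annotated start were read from RefSeq (GRCm38.p6) for 7 of the 10 genes, and 4 of these windows are shown: those of Agpat2, Lpin2 and Gpam, whose signals did not overlap between the genotypes, and that of Lpin1. Capitals mark AGGTCA, the letters of a nuclear receptor site. All windows run 5′ to 3′ on the strand of the gene. Of Lpin2, which has 3 listed starts, the first is shown, and of Gpam, which has 2, the second.
Agpat2, chr2:26604418-26604667, minus strand: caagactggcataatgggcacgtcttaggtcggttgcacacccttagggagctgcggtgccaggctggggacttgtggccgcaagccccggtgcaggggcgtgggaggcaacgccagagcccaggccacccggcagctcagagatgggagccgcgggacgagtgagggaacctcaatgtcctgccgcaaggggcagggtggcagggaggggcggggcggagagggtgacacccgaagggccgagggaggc
Lpin2, chr17:71183282-71183531, plus strand: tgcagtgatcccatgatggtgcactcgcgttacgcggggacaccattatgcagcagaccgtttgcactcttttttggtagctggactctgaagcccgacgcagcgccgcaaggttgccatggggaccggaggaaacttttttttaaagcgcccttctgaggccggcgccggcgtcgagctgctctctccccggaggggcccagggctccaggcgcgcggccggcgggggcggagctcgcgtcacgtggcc
Gpam, chr19:55099478-55099727, minus strand: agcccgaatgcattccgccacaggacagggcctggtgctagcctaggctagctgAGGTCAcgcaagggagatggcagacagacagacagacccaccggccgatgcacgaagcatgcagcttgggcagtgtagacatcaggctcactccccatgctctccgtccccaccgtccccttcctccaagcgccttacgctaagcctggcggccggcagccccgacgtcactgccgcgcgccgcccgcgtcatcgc
Lpin1, chr12:16610967-16611216, minus strand: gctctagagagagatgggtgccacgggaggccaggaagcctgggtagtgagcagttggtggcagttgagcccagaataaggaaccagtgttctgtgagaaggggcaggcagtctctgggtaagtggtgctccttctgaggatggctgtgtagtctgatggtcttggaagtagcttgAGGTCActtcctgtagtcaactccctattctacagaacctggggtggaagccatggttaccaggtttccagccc
AGGTCA was found, on either strand, 196 bases before this start of Gpam and 74 bases before that of Lpin1, and 14% of 32851 windows of the same length hold it. Among all windows read for these genes, only these held AGGTCA. The first start of Gpam, the other starts of Lpin2, and Agpat9, Mogat1 and Gyk, all not shown, had no match. The windows shown therefore hold AGGTCA more often than those read. The direct repeat of these letters with any 1 base between them, the canonical element of PPAR, was in none of the windows of these genes and in 0.0335% of all windows. None of the 4 windows shown held the Sox core letters ACAATG or ACAAAG, which occur in 10.7% and 16.5% of all windows. A match of letters is a description of the window and not a binding site.

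Of the 9 genes compared, 0 passed an adjusted p under 0.05 in limma, which 0.375% of all genes tested did (75 of 20002, with 0.185% higher and 0.19% lower in SHIVA livers). SHIVA over WT, the fitted log2 fold change lay below 0 for 8 of the 9, against 51.2% of all genes, and its median was -0.36, against -0.01 over all genes. For 3 genes, Agpat2, Gpam and Lpin2, every SHIVA value was lower than every WT value, which held for 6.02% of all genes. At an unadjusted p under 0.05, 2 of the 9 passed, Agpat2 and Agpat9, both on the lower side, where 13.3% of all genes did in either direction and 6.09% on the lower side. Without SHIVA 2 the counts were 8 of 9 below 0 and 5 of 9 apart, the added genes being Agpat9 and Gpd1, with 8.44% of all genes apart in this direction. With any 1 mouse left out, between 7 and 9 of the genes had a fitted change below 0. None of these counts is a test, since the genes were picked together for their pathway and some pairs of them vary together.

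**Figure D1:**
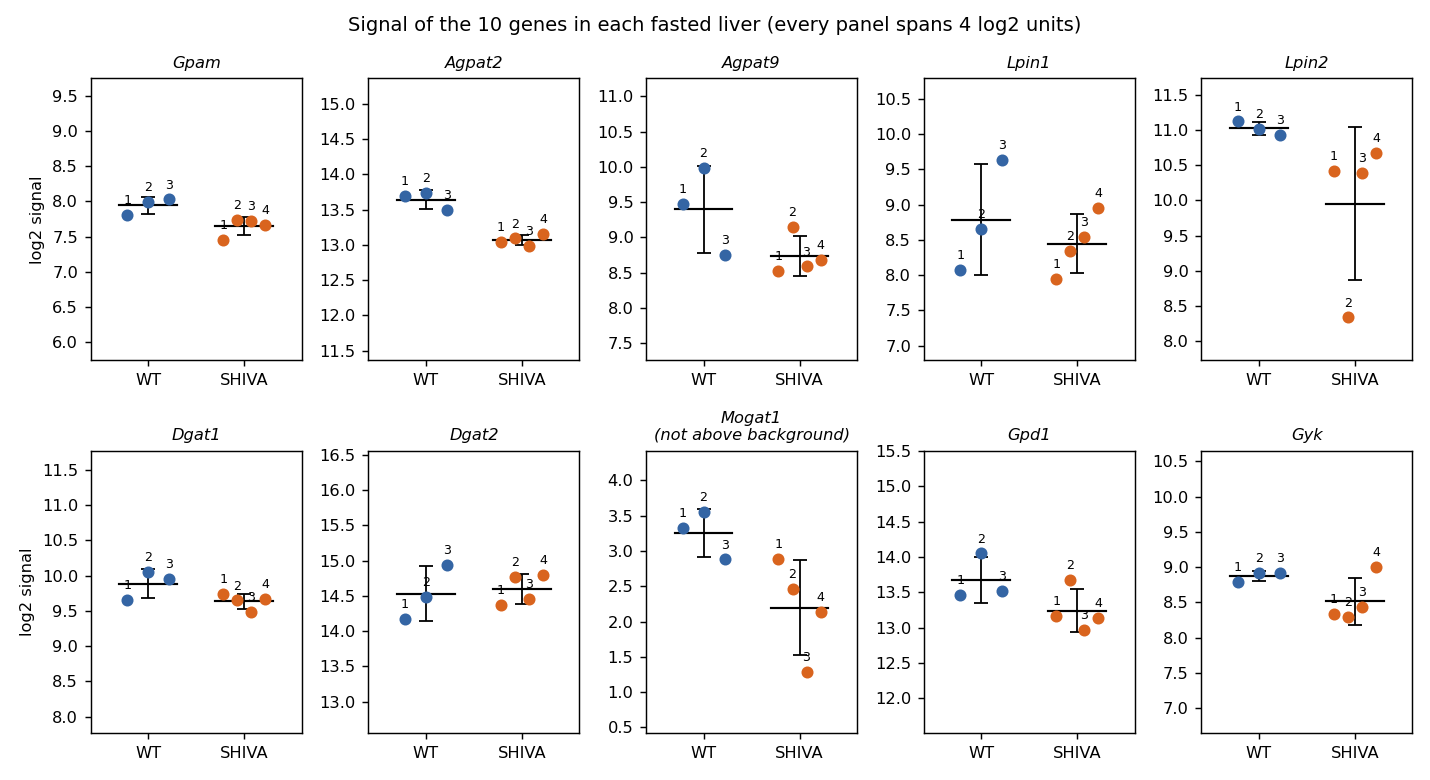
Log2 signal of each of the 10 genes (vertical axis, with its own range but the same span in every panel) in WT livers (blue) and SHIVA livers (orange); each point is 1 mouse with its number, the long bar is the mean and the whiskers are 1 SD. Agpat2 is tightly grouped in both genotypes, with SHIVA values of 12.98 to 13.16 under WT values of 13.49 to 13.74, whereas the mean of Lpin2 is drawn down by SHIVA 2 at 8.34.

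The supply of glycerol-3-phosphate was read by Gpd1 and Gyk. Gpd1 encodes the cytosolic dehydrogenase that makes glycerol-3-phosphate from dihydroxyacetone phosphate, and its probe lies on chromosome 15 of mm9, from 99555334 to 99555393. Gpd1 read 13.46, 14.05 and 13.52 in WT livers and 13.17, 13.67, 12.96 and 13.14 in SHIVA livers. All SHIVA livers but SHIVA 2 lay below the lowest WT liver, and SHIVA 2 lay between the WT livers. The log2 fold change was -0.44 (SE 0.22, 95% interval -0.94 to 0.06, adjusted p = 0.445 from limma). This estimate depended on single mice, at -0.25 without WT 2 and -0.58 without SHIVA 2.

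Gyk encodes glycerol kinase, which phosphorylates free glycerol and is an X-linked gene, with its probe on chromosome X of mm9 from 82956390 to 82956449. Signals were 8.79, 8.92 and 8.92 in WT livers and 8.34, 8.29, 8.44 and 9.01 in SHIVA livers. The WT values were nearly equal, 3 of the SHIVA livers lay below them, and SHIVA 4 lay above all of them. Accordingly the change of -0.36 (SE 0.20, 95% interval -0.81 to 0.09) did not pass (adjusted p = 0.484 from limma). With single mice left out it ran from -0.52 (without SHIVA 4) to -0.28 (without SHIVA 2).

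The first acylation, the step that commits glycerol-3-phosphate to lipid, was read by Gpam and Agpat9. Gpam encodes the mitochondrial glycerol-3-phosphate acyltransferase GPAT1 and was measured by a pair of probes on chromosome 19 of mm9. The brighter probe, from 55143274 to 55143333, gave 7.81, 7.99 and 8.03 in WT livers and 7.46, 7.74, 7.72 and 7.67 in SHIVA livers. Each SHIVA liver was below each WT liver, but the gap between the groups was smaller than the range within either. Means were 7.95 ± 0.12 (SD, n = 3) for WT and 7.65 ± 0.13 (SD, n = 4) for SHIVA, and the log2 fold change was -0.30 (SE 0.14, 95% interval -0.62 to 0.03, adjusted p = 0.419 from limma). Its unadjusted p was 0.0683 in limma and 0.0265 in the methods' t-test, where adjustment raised it to 0.396. The dimmer probe, from 55144289 to 55144348, gave 5.32, 5.34 and 5.31 in WT livers and 5.13, 3.80, 5.42 and 5.19 in SHIVA livers. Here SHIVA 3 exceeded the WT livers and SHIVA 2 was far below all others, so the probes did not order the mice alike. On this probe the change was -0.44 (SE 0.35, adjusted p = 0.648 from limma), and without SHIVA 2 it was -0.078 (adjusted p = 0.867 from limma).

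Agpat9, now Gpat3, encodes a glycerol-3-phosphate acyltransferase of the endoplasmic reticulum. Its probe, on chromosome 5 of mm9 from 101328054 to 101328113, gave 9.47, 9.98 and 8.75 in WT livers and 8.53, 9.15, 8.59 and 8.68 in SHIVA livers. The WT livers spread widely, and WT 3 lay close to the SHIVA livers and under SHIVA 2. The difference in means, 9.40 ± 0.62 (SD, n = 3) against 8.74 ± 0.28 (SD, n = 4), gave a log2 fold change of -0.66 (SE 0.29, 95% interval -1.32 to -0.01, adjusted p = 0.372 from limma). It was -0.37 without WT 2 and -0.99 without WT 3, so that it was set by which of these WT livers was kept.

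Agpat2 had the narrowest interval relative to its size among the 9 genes. It encodes the acyltransferase of the endoplasmic reticulum that turns lysophosphatidic acid into phosphatidic acid, and its loss in humans causes a congenital lipodystrophy. The probe, on chromosome 2 of mm9 from 26449107 to 26449166, gave 13.69, 13.74 and 13.49 in WT livers and 13.04, 13.09, 12.98 and 13.16 in SHIVA livers. No value of either group came within reach of the other, and the gap was wider than the range inside each group. Means were 13.64 ± 0.13 (SD, n = 3) and 13.07 ± 0.08 (SD, n = 4), so that the SHIVA signal was 67.1% of WT as a ratio of geometric means. The log2 fold change of -0.58 (SE 0.14, 95% interval -0.89 to -0.26) had an unadjusted p of 0.0025 and an adjusted p of 0.145 from limma. Under every alternative processing and with every mouse left out it lay between -0.65 and -0.45. Its lowest adjusted p among these was 0.0523, with array weights in limma, and 0.0719 without WT 3. The methods' t-test gave an unadjusted p of 0.000728 and an adjusted p of 0.192.

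The phosphatidate phosphatases, which make diacylglycerol, were read by Lpin1 and Lpin2. Lpin1 encodes lipin-1, which also acts in the nucleus as a coactivator of PPARα and is induced by fasting. Its brighter probe, on chromosome 12 of mm9 from 16543695 to 16543754, gave 8.08, 8.65 and 9.63 in WT livers and 7.95, 8.34, 8.54 and 8.95 in SHIVA livers. The WT livers alone covered a range wider than that of all SHIVA livers. A log2 fold change of -0.34 (SE 0.37, 95% interval -1.18 to 0.49, adjusted p = 0.744 from limma) therefore left either direction possible, and it turned to 0.08 without WT 3 and became -0.69 without WT 1. The other probe of Lpin1, from 16542515 to 16542574, was not well above background on any array.

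Lpin2 encodes lipin-2, a lipin that is abundant in liver. On chromosome 17 of mm9, from 71596935 to 71596994, its probe gave 11.12, 11.01 and 10.93 in WT livers and 10.42, 8.34, 10.39 and 10.67 in SHIVA livers. All SHIVA values lay below all WT values, and SHIVA 2 lay far under the other SHIVA livers. Means were 11.02 ± 0.09 (SD, n = 3) and 9.95 ± 1.09 (SD, n = 4). The log2 fold change, -1.07 (SE 0.51, 95% interval -2.22 to 0.09, adjusted p = 0.415 from limma), was the lowest of the 9 genes. Without SHIVA 2 it was -0.52 (adjusted p = 0.265 from limma), with the remaining 3 SHIVA livers still under the WT livers, and it was -0.74 with array weights. The 5 genes whose signal was most like that of Lpin2 over the 7 mice were Zkscan3, Gm9078, Gm6352 and the transcripts ENSMUST00000110374 and ENSMUST00000111253 (Pearson r of 0.989 to 0.994, as a description). All 5 had SHIVA 2 as their lowest liver. Over the other 6 mice r was 0.993 for Zkscan3 and 0.871 to 0.922 for the remaining 4, of which none was still among the 5 most like Lpin2.

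**Figure D2:**
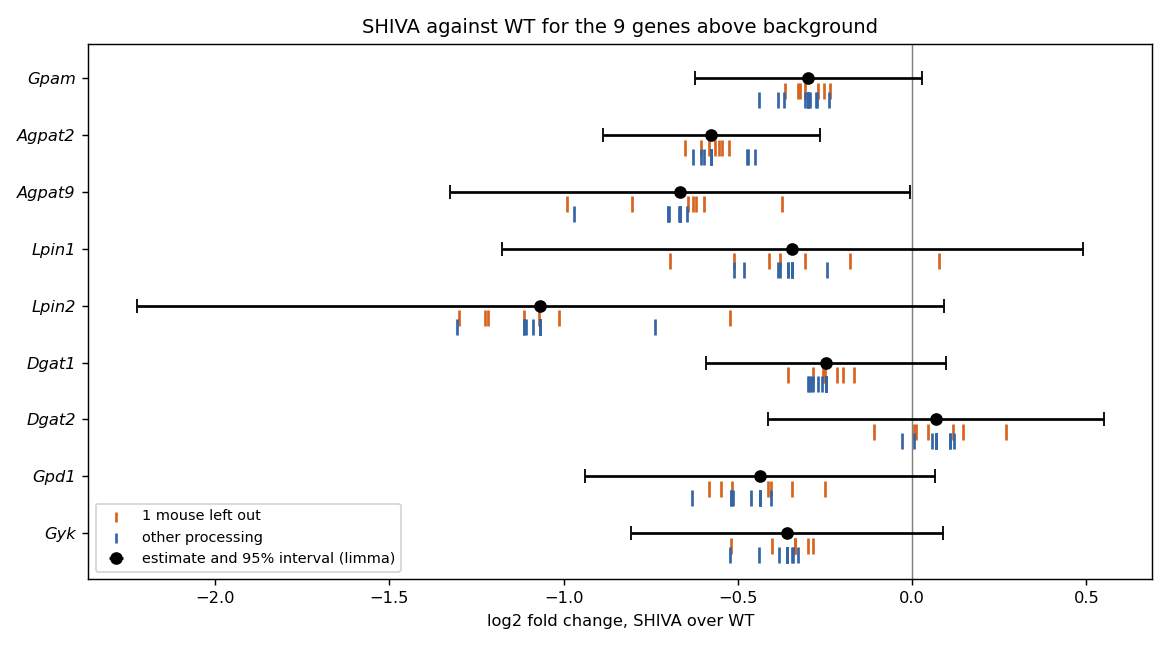
Log2 fold change of SHIVA over WT (horizontal axis) for the 9 genes above background, with the 95% interval of limma (black), the estimates with 1 mouse left out (orange ticks) and those under other processing (blue ticks). The ticks of Agpat2 stay between -0.65 and -0.45, those of Dgat2 and Lpin1 fall on both sides of 0, and those of Lpin2 lie at -1.01 or below but for 2, at -0.52 without SHIVA 2 and -0.74 with array weights.

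The last acylation, from diacylglycerol to triglyceride, was read by Dgat1 and Dgat2. Dgat2 encodes the enzyme that mainly handles newly made fatty acids. Its probe, on chromosome 7 of mm9 from 106302215 to 106302274, gave 14.17, 14.48 and 14.94 in WT livers and 14.37, 14.77, 14.46 and 14.79 in SHIVA livers. The groups were interleaved, and the lowest and highest livers were both WT. It was the only gene of the 9 with a fitted change above 0, a log2 fold change of 0.07 (SE 0.21, 95% interval -0.41 to 0.55, adjusted p = 0.925 from limma). The sign was not settled, at -0.11 without WT 1, 0.27 without WT 3 and -0.03 with array weights.

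Dgat1 encodes the related enzyme that largely re-esterifies fatty acids from outside the cell. The probe spans 147 bases of chromosome 15 of mm9, from 76333128 to 76333274, more than its length of 60. Signals were 9.66, 10.05 and 9.95 in WT livers and 9.74, 9.65, 9.49 and 9.67 in SHIVA livers. WT 1 lay among the SHIVA livers, and the other 2 WT livers lay above them. The change was -0.25 (SE 0.15, 95% interval -0.59 to 0.10, adjusted p = 0.539 from limma), with -0.36 without WT 1 and -0.17 without WT 2.

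Mogat1, which encodes an acyltransferase of the monoacylglycerol route, was not well above background on any of the 7 arrays. Its probe, on chromosome 1 of mm9 from 78534677 to 78534736, read 3.33, 3.55 and 2.88 in WT livers and 2.89, 2.46, 1.29 and 2.14 in SHIVA livers. At this signal no difference was detectable, and no fold change is given.

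Mice of the same genotype differed from each other, and some pairs of the genes went up and down together. After the mean of the genotype was taken off, Lpin1 and Dgat2 went together over the 7 mice (Pearson r = 0.90), as did Gpam with Dgat2 (0.74) and with Lpin1 (0.72). Agpat9 went with Agpat2 (0.80) and with Gpd1 (0.78). These pairs are named because they had the highest values among all pairs of the 9 genes. Other pairs ran without a break from 0.58 (Lpin1 with Gyk), 0.56 (Dgat1 with Gpd1) and 0.54 (Lpin2 with Gyk) to values below 0. Among the lowest were Agpat9 with Lpin1 (-0.50), Agpat9 with Lpin2 (-0.43) and Agpat2 with Lpin1 (-0.42). The lowest value was that of Lpin2 and Gpd1 (-0.71), which rested on SHIVA 2 and was 0.071 over the other 6 mice. Without SHIVA 2 the pairs named as highest had 0.97 (Lpin1 and Dgat2), 0.71 (Gpam and Dgat2), 0.82 (Gpam and Lpin1), 0.84 (Agpat9 and Agpat2) and 0.71 (Agpat9 and Gpd1). Other pairs then lay as high as some of them, with 0.78 for Agpat2 and Lpin2, 0.78 for Dgat1 and Gpd1 and 0.71 for Lpin2 and Gyk. Over all 7 mice Agpat2 and Lpin2 had -0.02, so the order of the pairs depended on SHIVA 2. Of the low pairs named, Agpat9 and Lpin1 had -0.52 and Agpat2 and Lpin1 -0.42 without SHIVA 2, while Agpat9 and Lpin2 had 0.36. Other pairs were negative too, such as Agpat9 and Dgat2 (-0.51). These are descriptions over 7 arrays that share a slide and a normalization. Among single mice, WT 3 differed from the mean of its group by 0.84 in Lpin1, 0.41 in Dgat2 and -0.65 in Agpat9. WT 1 was the lowest WT liver for 6 of the 9 genes, and SHIVA 4 was the highest SHIVA liver for 5.

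**Figure D3:**
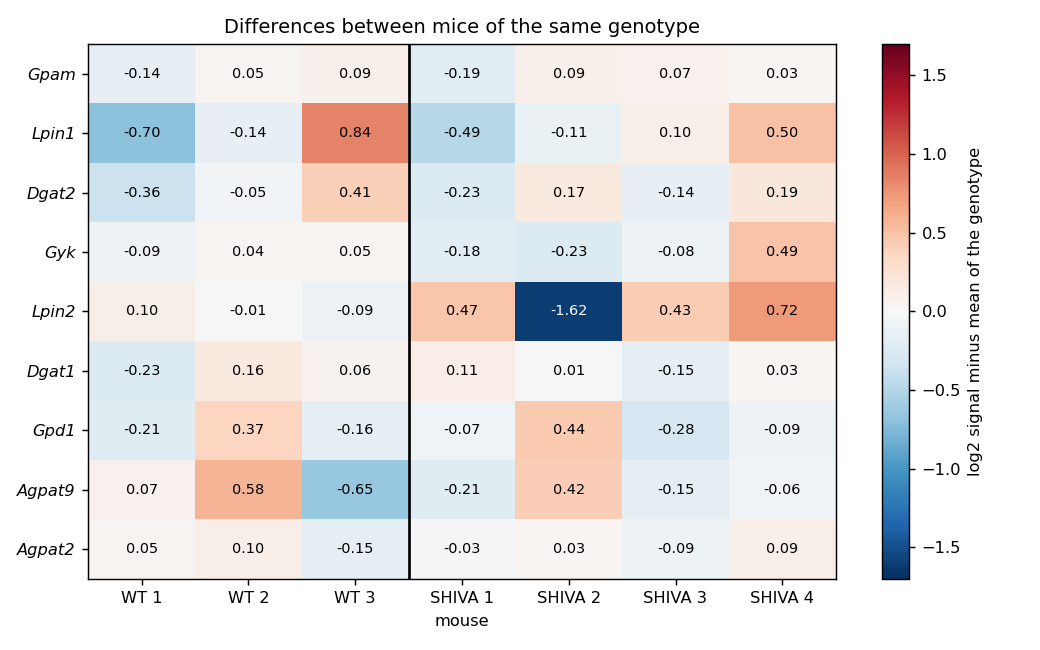
Log2 signal of each gene (rows) in each mouse (columns) minus the mean of its genotype, with red above and blue below; the black line parts WT from SHIVA. Lpin1 and Dgat2 share the sign of the deviation in 5 of the 7 mice, and SHIVA 2 stands at -1.62 in Lpin2.

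Around these genes, 74 others of the pathway were listed, of which 68 were tested and 1 passed, Lpl (1 of 68, where 0.185% of all genes passed on the higher side). Their fitted changes were below 0 for 40 and above for 28, with a median of -0.09, and the values of the genotypes were apart for 14 on the lower and 5 on the higher side (6.02% and 6.14% of all genes). Aqp3, Acsl6, Cds1, Pcyt1b, Dagla and Ppargc1b were not tested, for lack of signal. Of the other genes of glycerolipid synthesis and glycerol handling, 0 of 19 passed, and the median was 0.02. Gpat4, a glycerol-3-phosphate acyltransferase and the brightest of this list, had a log2 fold change of 0.09 (SE 0.29). Gpd2, the mitochondrial glycerol-3-phosphate dehydrogenase, which feeds electrons into the respiratory chain, read 7.58, 8.40 and 7.59 in WT livers and 6.80, 7.13, 7.06 and 6.72 in SHIVA livers. These groups were apart, at a log2 fold change of -0.93 (SE 0.23, adjusted p = 0.160 from limma). The phospholipid phosphatases were apart too, in both directions, with -0.65 for Plpp1, -0.43 for Plpp3 and 0.45 for Plpp2 (lowest adjusted p = 0.212 from limma).

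In fatty acyl-CoA supply 0 of 7 tested genes passed. Slc27a5, the fatty acid transporter and bile acyl-CoA synthetase of hepatocytes, had a log2 fold change of 0.03, and Slc27a4 one of -0.32 (adjusted p = 0.481 from limma), or -0.20 without SHIVA 2 (adjusted p = 0.631 from limma). In the phospholipid branch, which competes for phosphatidic acid and diacylglycerol, 0 of 17 passed. Genes with WT and SHIVA values apart included Chkb, a choline kinase (-0.72, adjusted p = 0.145 from limma), Chpt1, which makes phosphatidylcholine from diacylglycerol (-0.64, adjusted p = 0.226 from limma), Pcyt1a (-0.40), Pcyt2 (-0.23) and Cds2, which makes CDP-diacylglycerol (0.34). The regulators had 0 of 9 called. Ppara, the nuclear receptor that drives the response of the liver to fasting, read 12.19, 12.61 and 12.33 in WT livers and 11.66, 11.75, 11.64 and 11.78 in SHIVA livers. Its groups were apart, with a log2 fold change of -0.67 (SE 0.15, adjusted p = 0.132 from limma). Nr3c1, the glucocorticoid receptor, was apart on the higher side (0.23, adjusted p = 0.488 from limma), and Insig2, which holds back the processing of SREBP when sterols are plentiful, had overlapping values (-0.73, adjusted p = 0.546 from limma).

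Among genes of triglyceride and diglyceride breakdown, 1 of 16 passed. Lpl, lipoprotein lipase, which frees fatty acids from circulating triglyceride, read 7.46, 6.94 and 8.06 in WT livers and 9.46, 9.95, 9.71 and 9.27 in SHIVA livers (probe on chromosome 8 of mm9, from 71430267 to 71430326). Lpl rose in SHIVA livers, with the groups far apart, by a log2 fold change of 2.11 (SE 0.28, 95% interval 1.48 to 2.74, adjusted p = 0.0269 from limma), or 4.31-fold. The size held at 1.80 to 2.40 under all alternatives, but the call was lost with no filter on dim probes (adjusted p = 0.118 from limma), with the replicate block (0.0627), without WT 1 (0.157), WT 2 (0.112), SHIVA 1 (0.0742) or SHIVA 3 (0.0721), and in the methods' t-test after adjustment (0.199). The list of 6 macrophage markers, cells that also make Lpl, had all 6 fitted changes above 0 with 0 called, a median of 0.57 and a mean log2 signal of 9.94 to 11.24 in WT and 10.64 to 11.65 in SHIVA livers, and the part of these cells in the result was not tested. Of the endothelial list, on whose surface the enzyme sits, the mean was 8.50 to 8.62 in WT and 8.64 to 8.77 in SHIVA livers, which do not overlap. Each of its 6 markers overlapped when taken singly, 2 had fitted changes below 0, and the median was 0.11. Lyve1 had the largest change (0.79). The part of endothelial cells was not tested either. No lipase for stored lipid passed. Mgll, which splits monoacylglycerol into glycerol and fatty acid, had -1.25 (SE 0.26, adjusted p = 0.114 from limma), and Lipe, hormone-sensitive lipase, had -0.72 (adjusted p = 0.225 from limma), both with groups apart. Pnpla2, the main lipase of stored triglyceride, had -0.14 (adjusted p = 0.816 from limma) and Pnpla3, a relative of it, 0.20 (adjusted p = 0.859 from limma), both with overlapping values. The probe of Pnpla3 was dim, well above background on only 2 WT and 2 SHIVA arrays, so its change says little. G0s2, an inhibitor of the Pnpla2 enzyme, read 14.03, 14.43 and 12.44 in WT livers and 11.37, 13.04, 10.72 and 11.40 in SHIVA livers. WT 3 lay under SHIVA 2, and the change was -2.0 (SE 0.61, adjusted p = 0.233 from limma). These 3 genes were chosen after their values were seen. Dgka, which phosphorylates diacylglycerol, had -0.52 (adjusted p = 0.203 from limma), and Ces1d, the brightest of the list, had -0.12.

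**Figure D4:**
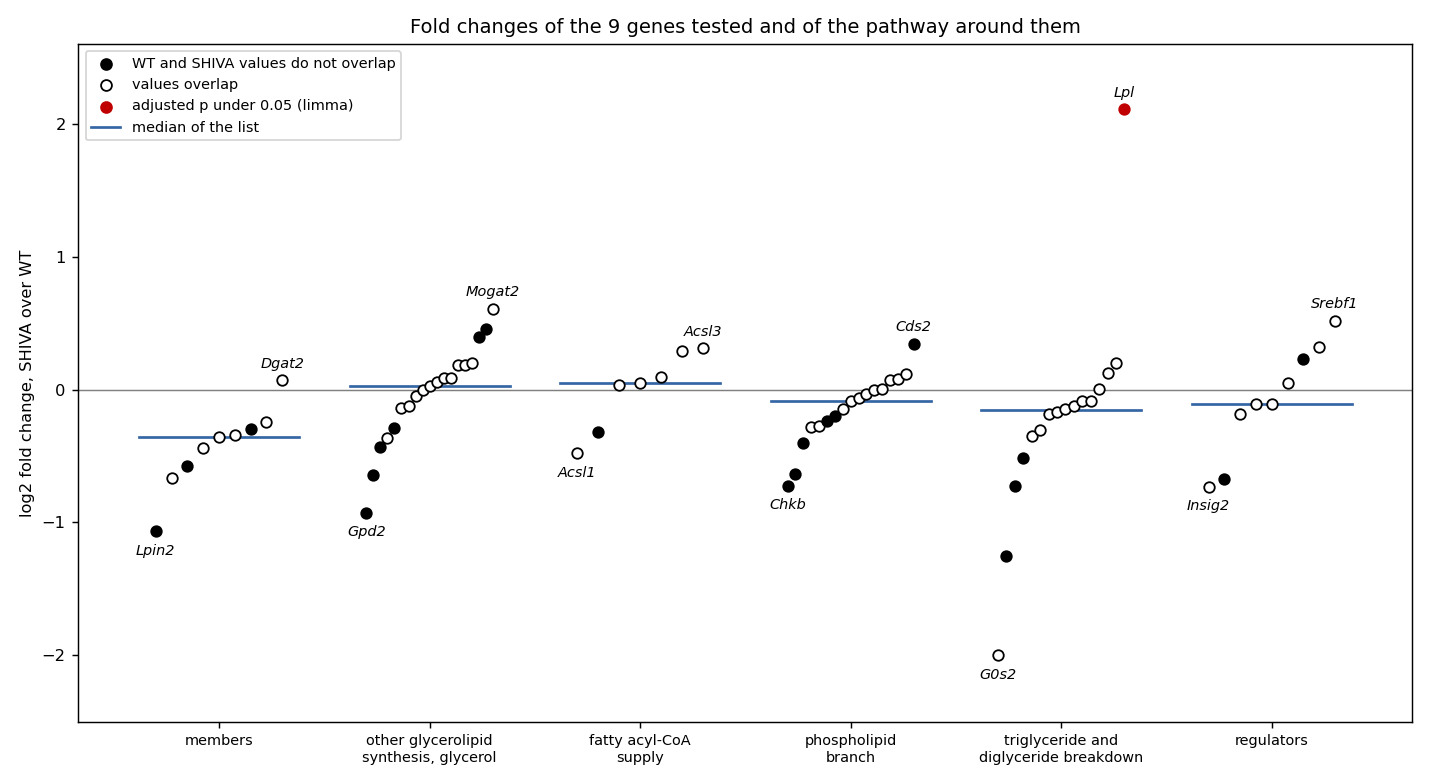
Log2 fold change of SHIVA over WT (vertical axis) for the 9 genes of triglyceride assembly tested ("members") and for the 5 lists around them; each point is 1 gene, filled where WT and SHIVA values do not overlap, red where the adjusted p of limma is under 0.05, with the median of each list as a blue line and the lowest and highest gene named. The median of the 9 genes is -0.36, those of the other lists lie between -0.16 and 0.05, and Lpl is the only red point; G0s2, Mogat2, Acsl1, Acsl3 and Srebf1 are labelled only as the ends of their lists.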

How the data were processed

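RNA of each liver was labelled with Cy3 and hybridized to its own Agilent mouse array. The scanner output deposited by the authors gives each spot intensity after Agilent Feature Extraction 10.5.1.1 (per the labels), which had removed spatial trends but had not normalized between arrays. A table of quantile normalized log2 values, also deposited, served as an alternative.

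Intensities of spots not marked as uneven or deviant (120 to 163 per array were marked, 0 of them in the 10 genes) were put on the log2 scale and quantile normalized over the 7 arrays in R 4.3.3 with limma 3.58.1. Quantile normalization gives all arrays 1 distribution, so a change shared by most genes would not be seen. Spots of a probe were averaged, and 26413 probes were renamed through their accession with RefSeq GRCm38.p6. Each gene was represented by its brightest probe and tested when 3 or more arrays had that probe well above background. WT and SHIVA were compared by the linear model of limma with empirical Bayes, over all 20002 genes, with Benjamini-Hochberg adjustment and a threshold of 0.05. Intervals are 95% intervals of that fit, and the number of arrays limits the precision. Probe positions are those of mm9 in the files, and whether a probe lies in an exon or UTR was not analysed here. Nothing beyond the labels' 1 mouse per array describes the replicates.

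The 10 genes, the lists of pathway genes and markers and the tests were chosen with earlier results of these data known. All 10 were named, with every probe. From each other list were named the genes called, up to 4 genes with the largest change among those with no overlap between genotypes, and the brightest gene. The labelled ends of the lists in the plot of the pathway were chosen after their values were seen. Alternatives were the authors' table, scaling of arrays to percentile 75, normexp correction (offset 50), the mean signal uncorrected for background, other filters on dim probes, other probes or their mean, array weights, a replicate block, leaving out 1 mouse at a time, and the methods' t-test. Slide rows follow the genotype, so no term for them was possible, while slide columns 1 to 3 equal the replicate numbers of the block. The values without SHIVA 2 for correlations, for genes like Lpin2, for Slc27a4 and for the dimmer probe of Gpam were added after the data had been seen. The fit was tested on simulated data. Promoter windows were searched on both strands for exact letters.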

Additional observations from a re-analysis of the deposited data

Results flagged for a closer look

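Among 29 values searched in the 4 SHIVA livers (the 9 genes of triglyceride assembly tested and the named genes around them), 2 had 1 mouse far from the other 3, where chance alone gives about 1 in 20, or 1.45. Both were SHIVA 2. For Lpin2 its log2 signal was 8.34, against 10.39 to 10.67 in the other SHIVA livers. For Slc27a4 it was 5.74, against 6.20 to 6.25. Over all 19969 genes searched, SHIVA 2 was the distant mouse in 838 (4.2%), of which 469 were below and 369 above the other SHIVA livers. SHIVA 1 was the distant mouse in a further 0.646%, SHIVA 3 in 0.956% and SHIVA 4 in 1.81%. Distant mice were thus common over all genes too, and the 2 flagged values are not read as an excess.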

How the results depend on the processing

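In limma 0 members were called under every alternative, and the lowest adjusted p was 0.0523 (Agpat2, array weights). The methods' t-test without adjustment passed 2 members, Agpat2 (-0.58) and Gpam (-0.30), and after adjustment 0. The log2 fold change turned sign for Dgat2 with array weights (-0.030), and for Dgat2 (-0.11 to 0.27) and Lpin1 (-0.69 to 0.077) with single mice left out. The cause was not tested. For the other 7 members the direction was kept under all alternatives.

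With single mice left out, the calls over all genes ran from 3 (without WT 1) to 423 (without WT 3), with 8 without WT 2, 7 without SHIVA 1 and 13 without SHIVA 3, and those over the 68 other pathway genes from 0 to 3 (Chkb, Lpl and Mgll without WT 3). Over all genes, where 75 were called (37 higher, 38 lower), the counts were 141 with the mean signal without background correction (62 higher, 79 lower), 141 with the authors' table, 13 with no filter on dim probes (4 higher, 9 lower), 269 with array weights, and 2299 by the methods' t-test, or 0 once adjusted. With normexp correction 71 were called, 27 higher and 44 lower. Over the pathway genes, where 1 was called, the counts were 2 with the mean signal and 2 with the authors' table (Lpl and Mgll), 0 with no filter, 4 with array weights (Gpd2, Lpl, Mgll and Ppara), and 18 or, adjusted, 0 with the methods' t-test.

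Same-numbered WT and SHIVA mice had correlations of their deviations of -0.05, 0.01 and 0.24, against -0.20 to 0.20 for differently numbered mice. The value of 0.24, of WT 3 and SHIVA 3, was the highest of all. So few values cannot decide whether the replicate numbers pair the mice. With the replicate block 32 genes were called (21 higher, 11 lower), 0 members and 0 pathway genes, and Agpat2 had -0.61 (adjusted p = 0.234 from limma).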
